A study of Mus musculus with 18 samples.

Results

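The proteasome genes were followed here in cultured mouse mast cells with and without Dnmt3a, at rest and after stimulation through IgE. A gene was included when its symbol on the array began with Psm, a letter from a to g and a number. The interferon-inducible catalytic subunits Psmb8, Psmb9 and Psmb10 were left out. The rule took 81 probes for 46 genes, of 19057 genes that had a probe. Psmc3ip, a meiotic recombination factor, and Psme3ip1, which binds an activator cap, matched by their letters only and are not proteasome components, which left 44 proteasome genes. Each gene was read from its probe with the highest mean in the authors' log2 values. Of the 44 genes, 37 were detected on all 18 arrays and Psma8 on 5, so that 38 were tested among 8966 genes in all.

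The proteasome is the particle that degrades ubiquitin-tagged proteins. Its 20S core is a stack of alpha and beta rings, with the peptidase sites on the beta subunits Psmb5, Psmb6 and Psmb7. The 19S regulatory particle opens the core and feeds it unfolded substrate through a ring of ATPases, and other caps (Psme1 to Psme4) can take its place. The transcription factor NRF1 (Nfe2l1) is known to raise many of these genes when proteasome activity falls short. In mast cells the proteasome is known for the turnover of signalling proteins such as the inhibitors of NF-kappaB after the IgE receptor is engaged.

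Mast cells lacking Dnmt3a, a de novo DNA methyltransferase (KO), and wild-type mast cells (WT) were kept untreated or were stimulated with IgE and antigen for 4 h or 24 h. Each of the 6 groups had 3 arrays, 1 from each of the KO cultures 3, 4 and 6 or the WT cultures 6, 8 and 9. All cells came from female mice and carry the label 5 weeks, which does not say whether it is the age of the animals or of the culture. The numbers in the labels were read as separate cultures. The sources used here do not say how the allele was made or from which tissue the cells were grown.

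Slide 1 held KO culture 3 and WT culture 6, slide 2 KO culture 4 and WT culture 8, and slide 3 KO culture 6 and WT culture 9. Median probe intensities ran from 93.4 to 159.4, and 28.7% to 33.8% of probes were above the detection limit, which is the 99th percentile of the probes for olfactory and vomeronasal receptors on the same array. The 3 Dnmt3a probes were above the limit on 0 arrays, so they did not check the genotype labels. All 12 measured mast cell markers were detected, 0 of 6 T and B cell markers, 2 of 9 macrophage markers (Adgre1 and Lyz2), 1 of 7 neutrophil markers (Elane), 1 of 6 dendritic cell markers (Siglech), 3 of 4 basophil markers and 3 of 6 erythroid and megakaryocyte markers. In bulk RNA, fewer cells of a type and less RNA per cell cannot be told apart. P-values are from limma with Benjamini-Hochberg adjustment over all genes tested. They rest on the spread between the arrays of a group, which are 1 per culture, so the number of cultures limits the precision. For KO against WT over the 3 conditions, the 3 arrays of each culture count as separate samples. The p-values of that comparison therefore do not measure the spread between cultures alone. Each ± after a log2 change is a standard error.

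Promoter windows of 4 members are shown because the pathway is known to be controlled through short promoter elements. Each covers 250 bases before to 50 bases after the annotated start of the gene, from RefSeq on build GRCm38.p6, in the direction of transcription. Capitals in the first pair mark the antioxidant response element core TGACNNNGC, through which NRF1 is known to act. Psmb5 lies on the minus strand at chr14:54617946-54618245, with its match at -47 to -39 from the start. Psmb6 lies on the plus strand at chr11:70525107-70525406, with its match at -9 to -1. Capitals in the second pair mark the ETS core CCGGAAG, which reads CTTCCGG when it lies on the other strand, and in Psme3 also the NF-Y box CCAAT, which reads ATTGG on the other strand. Psme3 (plus strand, chr11:101315963-101316262) and Psmd11 (plus strand, chr11:80428365-80428664) are members that rose at 4 h.
Psmb5: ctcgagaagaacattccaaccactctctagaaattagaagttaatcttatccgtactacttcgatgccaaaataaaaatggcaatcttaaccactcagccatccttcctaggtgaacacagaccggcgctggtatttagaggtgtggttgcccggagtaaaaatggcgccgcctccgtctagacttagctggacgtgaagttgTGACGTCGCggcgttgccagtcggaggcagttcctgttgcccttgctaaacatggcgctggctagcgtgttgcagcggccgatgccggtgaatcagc
Psmb6: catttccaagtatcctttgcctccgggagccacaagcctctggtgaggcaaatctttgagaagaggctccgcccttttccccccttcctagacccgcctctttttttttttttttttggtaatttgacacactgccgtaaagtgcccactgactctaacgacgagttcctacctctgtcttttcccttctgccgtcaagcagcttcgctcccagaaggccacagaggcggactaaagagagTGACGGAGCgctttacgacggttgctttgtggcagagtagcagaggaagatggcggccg
Psme3: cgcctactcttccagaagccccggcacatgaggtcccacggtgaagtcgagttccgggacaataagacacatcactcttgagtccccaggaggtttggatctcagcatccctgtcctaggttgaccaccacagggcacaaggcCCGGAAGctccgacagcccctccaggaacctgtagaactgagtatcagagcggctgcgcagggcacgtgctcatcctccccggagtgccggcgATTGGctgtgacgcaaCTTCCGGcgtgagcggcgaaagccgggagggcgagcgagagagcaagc
Psmd11: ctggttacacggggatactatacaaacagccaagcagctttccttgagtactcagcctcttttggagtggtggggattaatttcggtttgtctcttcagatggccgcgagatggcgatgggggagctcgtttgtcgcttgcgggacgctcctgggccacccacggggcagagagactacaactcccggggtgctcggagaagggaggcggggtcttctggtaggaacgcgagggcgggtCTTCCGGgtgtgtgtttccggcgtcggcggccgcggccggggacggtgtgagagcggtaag

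Promoters of 36 of the 44 genes were found by symbol, and 4 motifs were searched on both strands. TGACNNNGC was in 6 of 36 promoters (16.7%; Psmb5, Psmb6, Psmc6, Psmd9, Psmd12 and Psme4), or 19.4% of the 31 promoters of tested members. It was in 17.0% of the 7354 tested genes with a promoter and 14.0% of all genes with a promoter. CCGGAAG was in 14 of 36 (38.9%), or 41.9% of the tested members, against 22.1% of the tested genes and 9.93% of all 27025 genes with a promoter. The NF-Y box CCAAT was in 36.1%, or 29.0% of the tested members, against 43.4% of the tested genes and 41.1% of all genes. The TATA box was in 8.33%, or 9.68% of the tested members, against 8.77% and 15.7%. The letters searched for the last were TATAAA. Matches of different motifs overlapped in 2 genes, Psma6 and Psmc2. Of the 7 genes with a promoter that rose at 4 h, 1 held TGACNNNGC (Psmb6) and 3 held CCGGAAG (Psmd11, Psme3 and Psmg3). A match is a description of letters and was not tested as a site.

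The median change was above 0 in all 7 structural groups of proteasome genes after 4 h. Over both genotypes together, 8 of the 38 tested proteasome genes rose and 0 fell at 4 h against untreated. Of all 8966 genes, 7.41% rose and 7.89% fell in that comparison. The median log2 change was 0.20 over the 38 genes and -0.03 over all genes, or -0.04 over the 1984 genes with a mean log2 intensity above 10. The change was above 0 for 34 of the 38 genes and for 46.5% of all genes. All 28 tested subunits of the 20S and 19S particles were above 0 on their chosen probes, of which 5 passed the test. Another probe of Psma8, of Psmd2 and of Psmd6 was below 0, at -0.07, -0.09 and -0.05, in a limma fit of every kept probe. Psma8 was above the detection limit on KO arrays only. The value was higher in each of the 6 cultures for 18 of the 38 genes, against 12.6% of all genes.

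**Figure D1:**
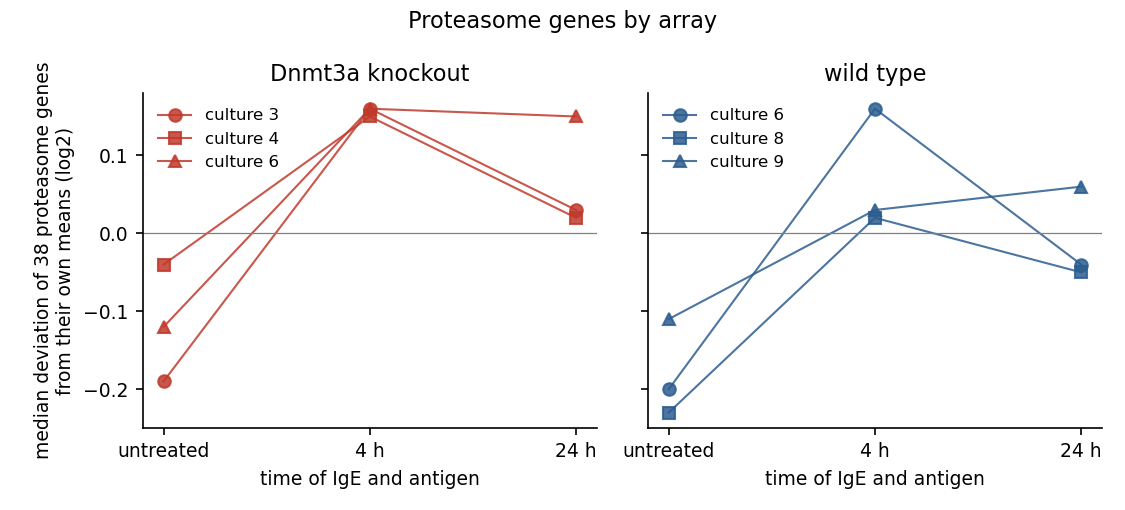
Median deviation of the 38 tested proteasome genes from their own means over 18 arrays (log2), by time, with 1 line per culture, KO cultures in the left panel and WT cultures in the right. Every culture was higher at 4 h than untreated, and KO culture 6 and WT culture 9 were the highest of their genotype at 24 h.

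The median change of the 38 genes at 4 h was 0.29, 0.14 and 0.17 in KO cultures 3, 4 and 6, against 0.35, 0.28 and 0.12 in WT cultures 6, 8 and 9. On each slide both cultures were above 0. The medians over all tested genes lay between -0.04 and -0.02 in these cultures. With the culture as a replicate block, 13 members rose in limma, namely the same 8 and also Psma5, Psmb5, Psmb7, Psmc4 and Psmd12. Calls over all genes grew as well, to 26.1% in either direction with that block, against 15.3% without it. With the slide as a block 15 members rose, while 12.7% of all genes rose. The count was 2 members when KO culture 3, KO culture 4 or WT culture 8 was left out, where 2.98%, 2.65% and 1.01% of all genes rose. It was 5 without KO culture 6 (6.46% of all genes), 4 without WT culture 6 (3.48%) and 11 without WT culture 9 (8.06%). Psme3 and Psmd8 passed in all 14 of the other settings tried.

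**Figure D2:**
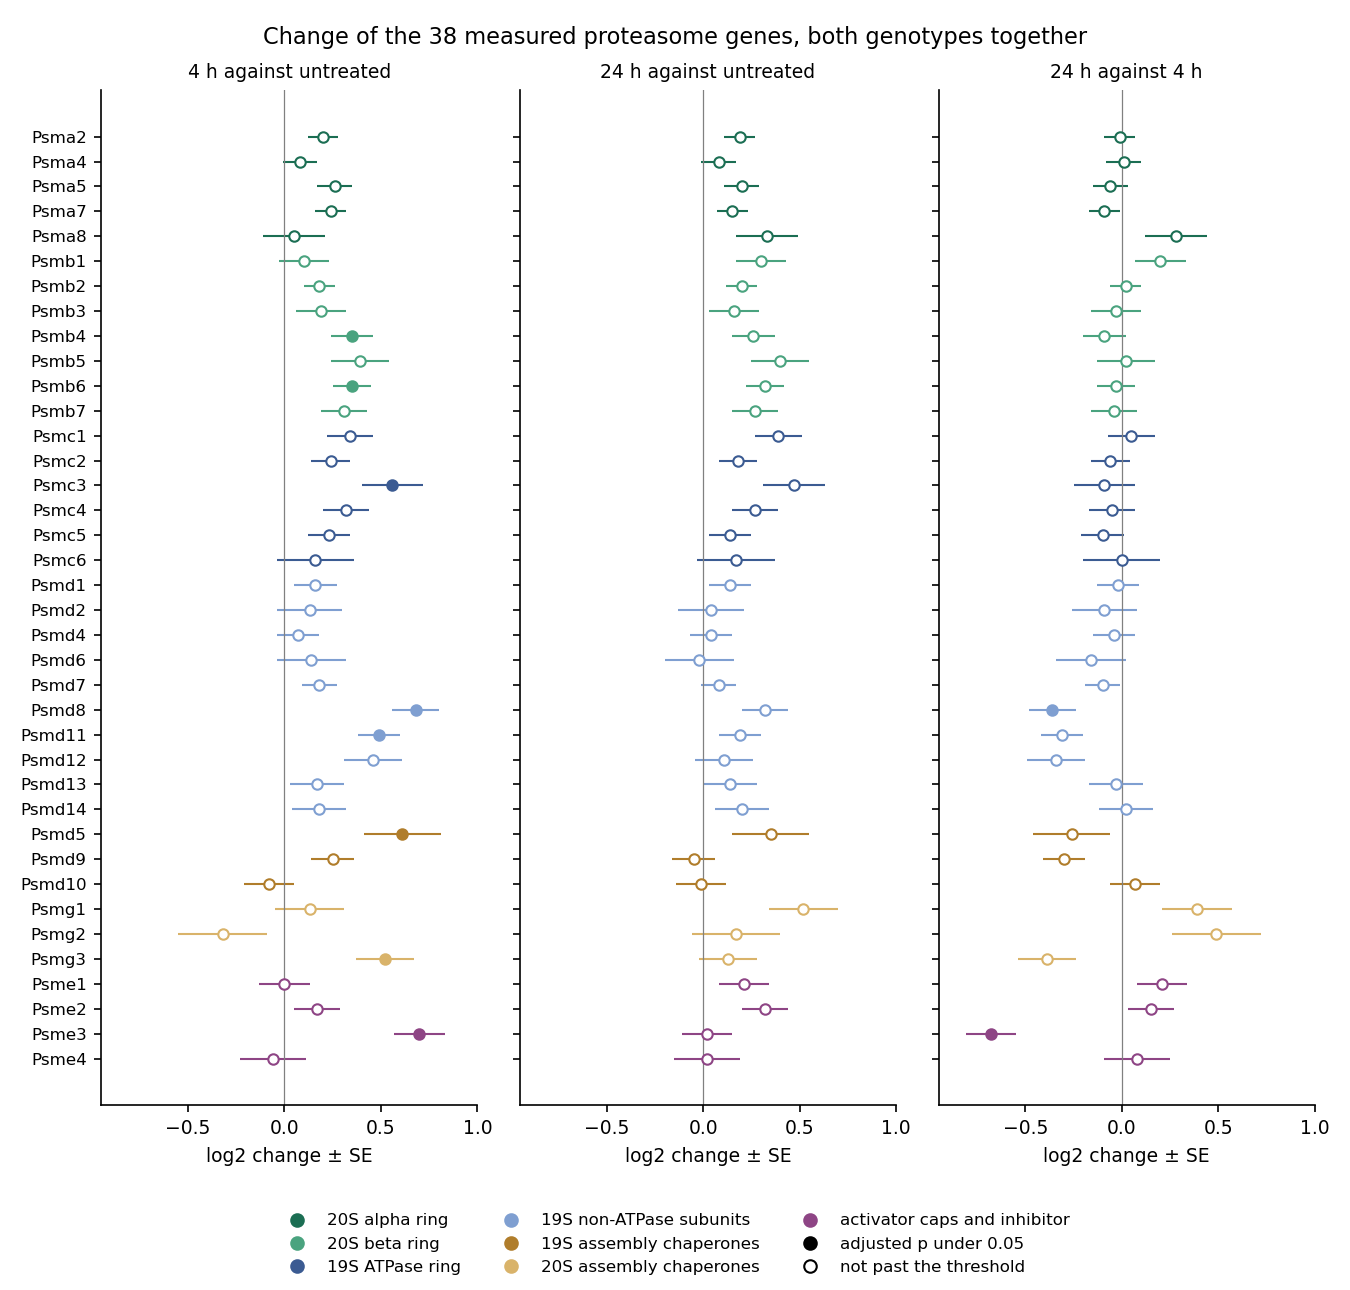
Log2 change ± SE of the 38 tested proteasome genes over both genotypes, grouped by role, at 4 h against untreated, 24 h against untreated and 24 h against 4 h; filled points had an adjusted p under 0.05. The left panel holds 8 filled points, the middle panel 0 and the right panel 2, which lie at -0.68 (Psme3) and -0.36 (Psmd8).

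Psme3, the single subunit of the PA28-gamma cap of nuclear proteasomes, rose 1.63-fold at 4 h over both genotypes. Its log2 intensities at 4 h were 10.29, 10.16 and 10.14 in KO cultures and 10.28, 10.21 and 9.86 in WT cultures. Untreated, they were 9.55, 9.36 and 9.53 in KO cultures and 9.81, 9.01 and 9.45 in WT cultures. Every 4 h array was above every untreated array, WT culture 9 by the least. The log2 change was 0.70 ± 0.13 (adjusted p = 0.00349), with a 95% interval from 0.42 to 0.99. The other caps did not pass: Psme1, a subunit of the PA28 cap induced by interferon-gamma, had 0.00 ± 0.13, Psme2, its partner, 0.17 ± 0.12 and Psme4, the cap PA200, -0.06 ± 0.17.

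Psmd8, a lid subunit of the 19S particle, rose 1.60-fold (log2 0.68 ± 0.12, adjusted p = 0.00281). The 4 h arrays had log2 intensities of 12.15, 11.94 and 11.77 in KO cultures and 12.19, 12.08 and 11.58 in WT cultures. The untreated arrays had 11.26, 11.36 and 11.16 in KO cultures and 11.50, 11.29 and 11.08 in WT cultures. The 2 conditions did not overlap, and WT culture 9 was again the lowest at 4 h.

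Psmd11, another lid subunit, which is known to promote assembly of the 26S particle, rose 1.41-fold (log2 0.49 ± 0.11, adjusted p = 0.011). At 4 h its values were 10.03, 9.97 and 9.76 in KO cultures and 9.78, 9.71 and 9.58 in WT cultures. At rest they were 9.34, 9.45 and 9.46 in KO cultures and 9.54, 9.08 and 8.99 in WT cultures. No untreated array reached a 4 h array. Its second detected probe gave 0.48 with an adjusted p of 0.0472 in a limma fit of every kept probe. Of the other 8 non-ATPase subunits, Psmd12 had 0.46 ± 0.15 (adjusted p = 0.0505), and the lowest was the ubiquitin receptor Psmd4 at 0.07 ± 0.11. The other probe of Psmd12 gave 0.27 ± 0.18 (adjusted p = 0.335) in the fit of every kept probe.

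In the ATPase ring, 1 of 6 genes passed. Psmc3, one of the ATPases that unfold the substrate, rose 1.48-fold (log2 0.56 ± 0.16, adjusted p = 0.0315). Its values at 4 h were 10.46, 10.56 and 10.53 in KO cultures and 10.46, 10.06 and 10.14 in WT cultures. Before stimulation they were 9.30, 10.23 and 9.90 in KO cultures and 9.64, 9.78 and 9.99 in WT cultures. Untreated KO culture 4 was above the 4 h arrays of WT cultures 8 and 9, and within each genotype the 2 conditions did not overlap. The other 5 ATPases lay between 0.16 (Psmc6) and 0.34 (Psmc1). For Psmc5 the chosen probe gave 0.23 (adjusted p = 0.176) and its other probe 0.75 (adjusted p = 0.00421) in the fit of every kept probe. A second probe of Psmc2 gave 0.40 ± 0.12 (adjusted p = 0.032) there, against 0.24 ± 0.10 on the chosen one.

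In the beta rings, 2 of 7 genes passed and all 7 were above 0, with a median of 0.31, from 0.10 ± 0.13 (Psmb1) to 0.39 (Psmb5). Psmb6, the caspase-like peptidase subunit, rose 1.28-fold (log2 0.35 ± 0.10, adjusted p = 0.0245). Its log2 intensities were 12.06, 12.24 and 11.93 in KO cultures and 12.03, 12.09 and 11.90 in WT cultures at 4 h. They were 11.71, 11.99 and 11.66 in KO cultures and 11.64, 11.55 and 11.59 in WT cultures at rest. Untreated KO culture 4 reached above 2 of the 4 h arrays, and in WT cells the conditions did not overlap. Its second probe gave 0.42 (adjusted p = 0.0221) in the fit of every kept probe.

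Psmb4, a beta subunit without a peptidase site, rose 1.27-fold (log2 0.35 ± 0.11, adjusted p = 0.0381). At 4 h it stood at 12.83, 12.90 and 12.88 in KO cultures and 12.78, 12.47 and 12.59 in WT cultures. Untreated cells had 12.29, 12.81 and 12.77 in KO cultures and 12.17, 12.08 and 12.26 in WT cultures. KO cultures 4 and 6 were already high before stimulation, near their 4 h values, and WT cells showed no overlap between the conditions.

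The chymotrypsin-like subunit Psmb5 and the trypsin-like subunit Psmb7 did not pass without a block. Psmb5 had a log2 change of 0.39 ± 0.15 (adjusted p = 0.0963, and 0.0448 with the replicate block). Its 4 h arrays read 10.08, 9.87 and 10.10 in KO cultures and 9.76, 9.94 and 9.96 in WT cultures, against 9.34, 9.59 and 9.72 in KO cultures and 9.27, 9.42 and 10.06 in WT cultures untreated. WT culture 9 was the one culture in which the 4 h value was not the higher. Psmb7 had 0.31 ± 0.12 (adjusted p = 0.0934) and was higher in 6 of 6 cultures, and 2 of its 3 other probes passed in the fit of every kept probe.

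No alpha ring gene passed on its chosen probe, and all 5 tested ones lay between 0.05 and 0.26. The highest was Psma5 at 0.26 ± 0.09 (adjusted p = 0.0527, and 0.0304 with the replicate block), higher in 6 of 6 cultures. Its second probe gave 0.44 ± 0.13 (adjusted p = 0.029) in the fit of every kept probe. The lowest was Psma8, the alpha subunit of testis-specific proteasomes, at 0.05 ± 0.16, and it was above the limit on KO arrays only.

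Assembly factors moved unequally. Psmd5, a chaperone of the 19S base that is not part of the finished particle, rose 1.53-fold (log2 0.61 ± 0.20, adjusted p = 0.0465). It had 9.90, 9.40 and 8.82 in KO cultures and 9.74, 9.06 and 8.70 in WT cultures at 4 h, against 8.63, 9.29 and 8.64 in KO cultures and 8.42, 8.37 and 8.62 in WT cultures untreated. The arrays of slide 1 were the highest at 4 h in both genotypes, those of slide 3 were the lowest, and untreated KO culture 4 overlapped the 4 h range. The other base chaperones were Psmd9 at 0.25 ± 0.11 and Psmd10 (gankyrin) at -0.08 ± 0.13.

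Psmg3, a chaperone of the 20S alpha ring, rose 1.43-fold (log2 0.52 ± 0.15, adjusted p = 0.0346). Its 4 h values were 9.42, 9.04 and 9.49 in KO cultures and 9.34, 9.08 and 8.67 in WT cultures. Its untreated values were 8.73, 8.73 and 8.74 in KO cultures and 8.77, 8.17 and 8.79 in WT cultures. WT culture 9 was the exception, with a 4 h value below its untreated one. Psmg2, whose product pairs with that of Psmg1 to start the alpha ring, had the lowest change of the 38 genes, -0.32 ± 0.23 (adjusted p = 0.366), and its other 2 probes gave -0.21 and -0.30 in the fit of every kept probe.

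**Figure D3:**
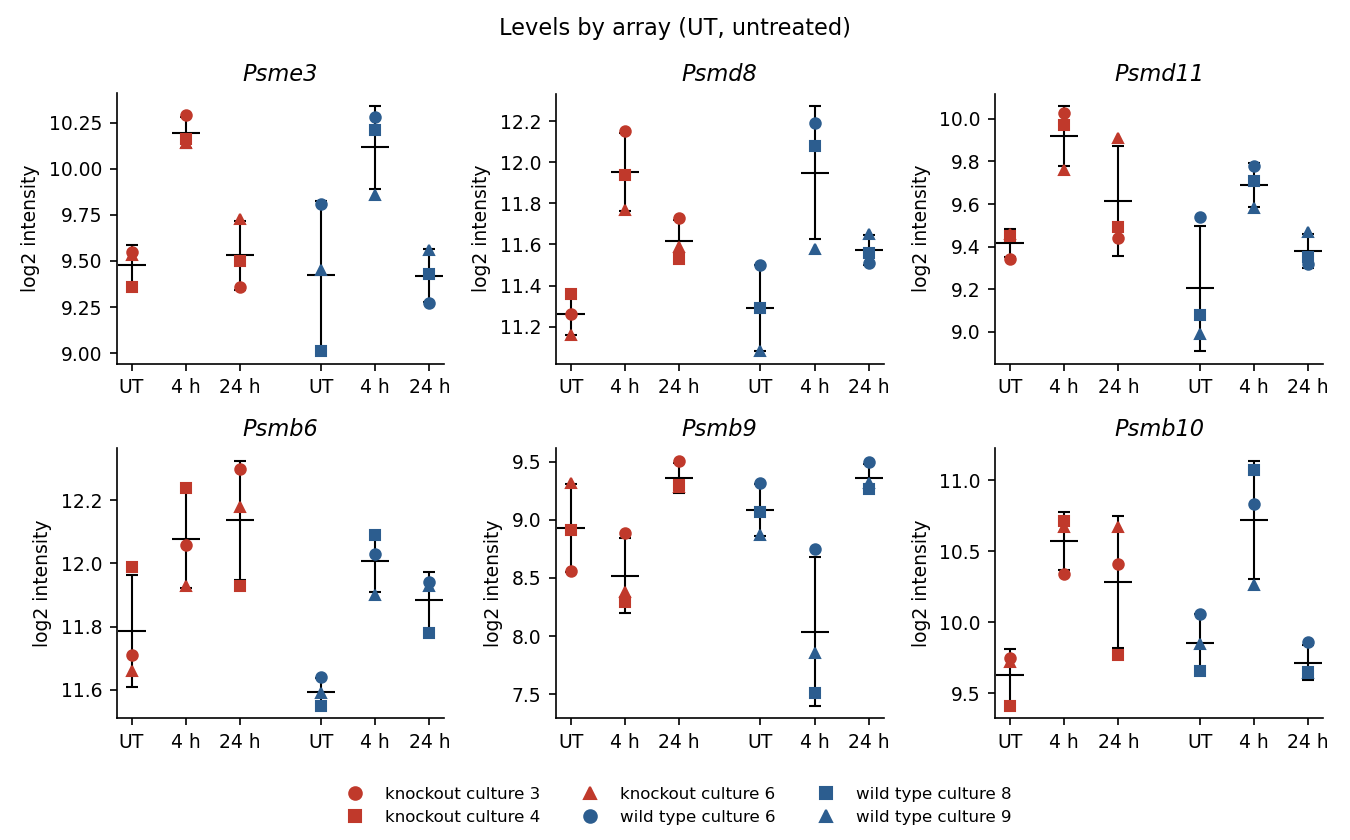
Log2 intensity of 4 proteasome genes and of the excluded subunits Psmb9 and Psmb10 on each array, KO groups left of WT groups, with group mean ± SD (n = 3) in black. Psme3 and Psmd8 were high at 4 h in both genotypes, Psmb6 was high at 4 h and 24 h, and Psmb9 and Psmb10 ran in opposite directions at 4 h.

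The excluded counterparts did not move together. Psmb10, the inducible counterpart of Psmb7, rose 1.87-fold at 4 h (log2 0.90 ± 0.16, adjusted p = 0.00348). It had 10.34, 10.71 and 10.67 in KO cultures and 10.83, 11.07 and 10.26 in WT cultures at 4 h, and 9.75, 9.41 and 9.72 in KO cultures and 10.06, 9.66 and 9.85 in WT cultures untreated, without overlap. Psmb9, the inducible counterpart of Psmb6, fell by 0.73 on the log2 scale (adjusted p = 0.0198). Its 4 h values were 8.89, 8.29 and 8.38 in KO cultures and 8.75, 7.51 and 7.85 in WT cultures, against 8.56, 8.91 and 9.32 in KO cultures and 9.32, 9.07 and 8.87 in WT cultures untreated. KO culture 3 was the one culture in which Psmb9 was the higher at 4 h. Psmb8, the counterpart of Psmb5, had -0.18 ± 0.17 (adjusted p = 0.518).

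At 24 h the median of the proteasome genes was above its untreated level, with no single gene past the threshold. Over both genotypes 0 of 38 passed in limma, while 3.56% of all genes rose and 4.52% fell, and 15 of the 38 had an unadjusted p under 0.05. The median change was 0.18 over the 38 genes and -0.01 over all genes. It was above 0 for 35 of the 38 genes, against 48.4% of all genes, and higher in each of the 6 cultures for 12 of the 38, against 11.3%. Culture medians were 0.21, 0.07 and 0.32 in KO cultures 3, 4 and 6 and 0.18, 0.23 and 0.19 in WT cultures 6, 8 and 9. With the replicate block 8 members rose, Psma8, Psmb1, Psmb5, Psmb6, Psmc1, Psmc3, Psmd8 and Psmg1, while 9.45% of all genes rose. Psma8 was above the detection limit on KO arrays only, so its call is not read as a rise over both genotypes. It is also 1 of the 15, of the 35 and of the 12 genes counted above, with a log2 change of 0.33 (unadjusted p = 0.0472).

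The smallest adjusted p at 24 h belonged to Psmb6, with a log2 change of 0.32 ± 0.10 (adjusted p = 0.0527). Its 24 h values were 12.30, 11.93 and 12.18 in KO cultures and 11.94, 11.78 and 11.93 in WT cultures. All but KO culture 4 were above their untreated arrays. Psmc1, an ATPase, had 0.39 ± 0.12 (adjusted p = 0.0531), with 10.50, 10.37 and 10.56 in KO cultures and 10.42, 10.44 and 10.73 in WT cultures at 24 h, against 10.13, 10.30 and 10.13 in KO cultures and 10.07, 9.98 and 10.10 in WT cultures untreated. Every 24 h array of Psmc1 was above every untreated array.

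By role, the beta ring had the highest median at 24 h among the groups of 5 or more genes, 0.27 over 7 genes, followed by the ATPase ring at 0.23 over 6. The alpha ring had 0.19 over 5 and the non-ATPase subunits 0.12 over 10. The largest single change was that of Psmg1 at 0.52 ± 0.18 (adjusted p = 0.0859), and the lowest that of Psmd9 at -0.05 ± 0.11. Psmb1 had 0.30 ± 0.13, Psmb5 0.40 ± 0.15 and Psmb3, the lowest of the beta ring, 0.16 ± 0.13. In the alpha ring Psma4 was lowest at 0.08 ± 0.09. Psma8, above the limit on KO arrays only, was highest at 0.33 ± 0.16, and Psma5 came next at 0.20 ± 0.09. Among the ATPases Psmc3 had 0.47 ± 0.16 and Psmc5 0.14 ± 0.11, while the other probe of Psmc5 gave 0.47 ± 0.14 (adjusted p = 0.0554) in the fit of every kept probe. Among the non-ATPase subunits Psmd8 had 0.32 ± 0.12 and Psmd6 -0.02 ± 0.18. The base chaperone Psmd5 had 0.35 ± 0.20 and the alpha ring chaperone Psmg3 0.13 ± 0.15. Among the caps Psme2 was highest at 0.32 ± 0.12 and Psme3 had 0.02 ± 0.13.

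At 24 h against 4 h over both genotypes 2 members passed, Psme3 and Psmd8, both lower, while 21.0% of all genes passed in either direction. Psme3 fell by 0.68 on the log2 scale (adjusted p = 0.00319), with 24 h values of 9.36, 9.50 and 9.73 in KO cultures and 9.27, 9.43 and 9.56 in WT cultures. All 24 h arrays were below all 4 h arrays. Psmd8 fell by 0.36 (adjusted p = 0.0409), with 11.73, 11.53 and 11.59 in KO cultures and 11.51, 11.56 and 11.65 in WT cultures at 24 h. WT culture 9 was the exception, higher at 24 h than at 4 h, and Psmd8 passed in 8 of 14 other settings. The count was 1 without KO culture 3, KO culture 4, WT culture 6 or WT culture 8, 4 without KO culture 6 and 5 without WT culture 9. Of all genes 5.12% to 21.8% passed with a culture left out.

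With the replicate block 5 members passed in that comparison: Psme3 and Psmd8 again, and Psma8, Psmg1 and Psmg2 as higher, while 17.5% of all genes were higher and 15.7% lower. Psma8 was above the limit on KO arrays only, so no change over both genotypes is read from its call. Psmg2 had 10.05, 10.44 and 10.75 in KO cultures and 10.01, 10.50 and 10.41 in WT cultures at 24 h, against 9.54, 9.64 and 10.45 in KO cultures and 9.43, 9.53 and 10.60 in WT cultures at 4 h (log2 0.49 ± 0.23, adjusted p = 0.143 without the block). WT culture 9 was its one exception. Psmb10 fell by 0.65 (adjusted p = 0.0137) and Psmb9 rose by 1.08 ± 0.19 (adjusted p = 0.00217) over the same interval.

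**Figure D4:**
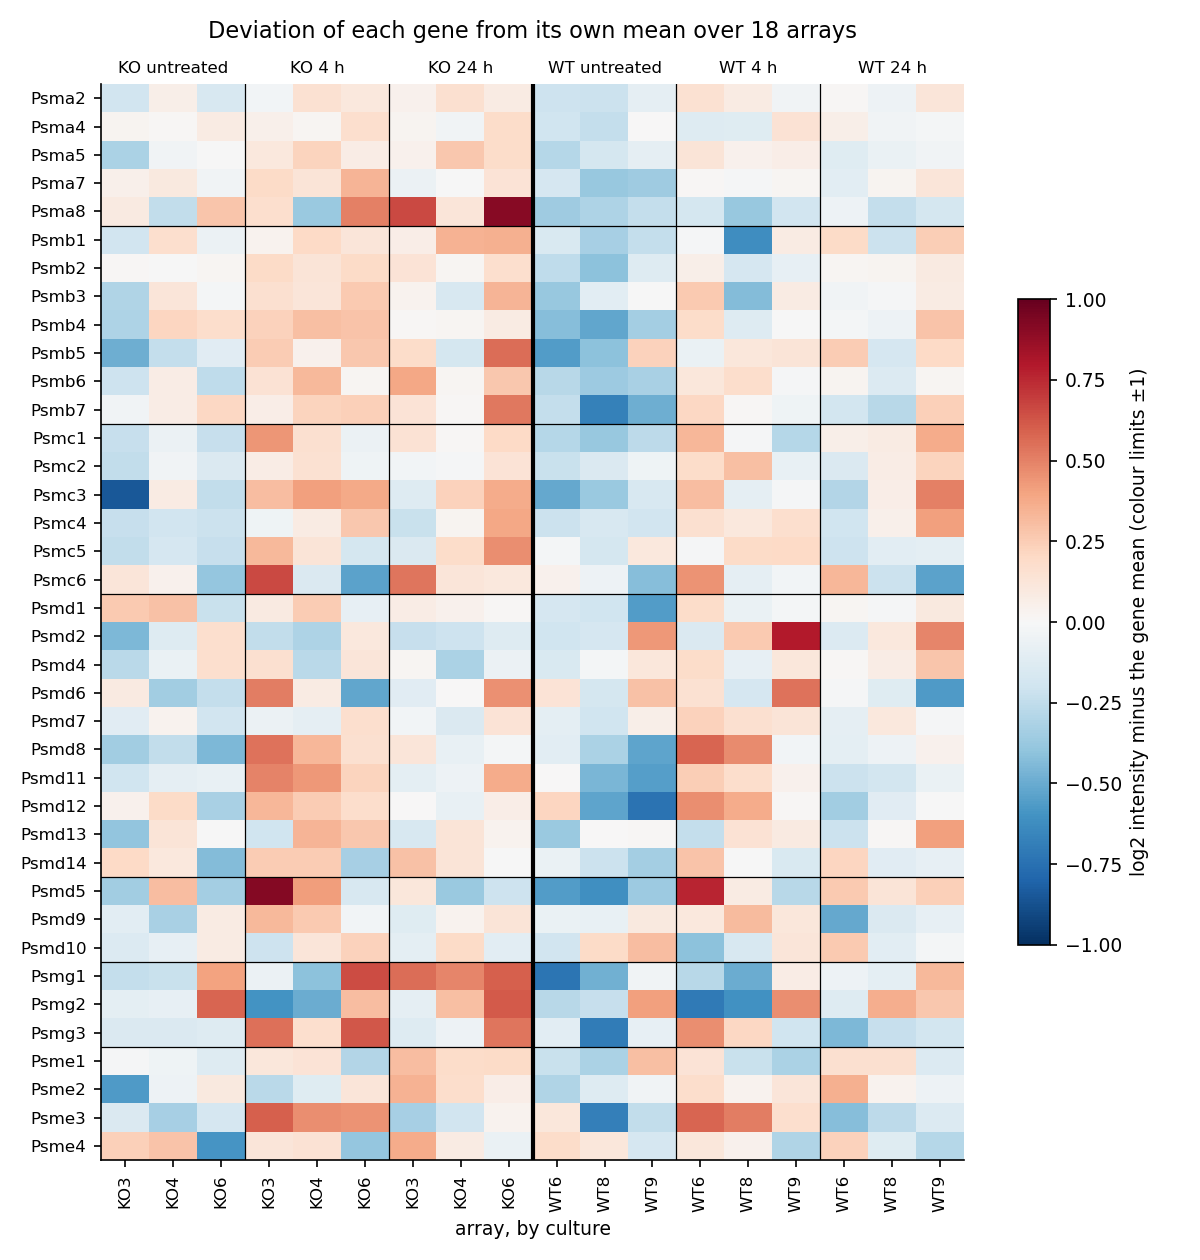
Log2 intensity of each of the 38 tested proteasome genes minus its own mean, with genes in rows by role and arrays in columns, KO groups left of WT groups; the colour scale ends at ±1. The 4 h columns are red over most core and 19S rows, the untreated columns are mostly blue, and Psmg2 is high on slide 3, in the arrays of KO culture 6 and WT culture 9.

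Within a single genotype 0 members passed at 4 h. In KO cells the median at 4 h was 0.18, with 34 of 38 genes above 0 (46.9% of all genes) and 7 with an unadjusted p under 0.05, where 0.814% of all genes passed. In WT cells it was 0.26, with 34 of 38 above 0 (45.4% of all genes) and 11 with an unadjusted p under 0.05, where 1.78% of all genes passed. Psme3 had 0.72 ± 0.18 in KO cells (adjusted p = 0.0736) and 0.69 ± 0.18 in WT cells (adjusted p = 0.0628), and Psmd8 had 0.69 ± 0.16 in KO cells (adjusted p = 0.0648) and 0.66 ± 0.16 in WT cells (adjusted p = 0.053). Both genes passed in both genotypes with the replicate block. Of all genes, 2.73% were then higher and 1.95% lower in KO cells, and 4.12% and 4.41% in WT cells.

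At 24 h 33 of 38 members were above 0 in KO cells (49.9% of all genes) and 32 of 38 in WT cells (47.4% of all genes). The medians were 0.18 in KO cells and 0.19 in WT cells, with 0 members past the threshold in either, 9 and 8 with an unadjusted p under 0.05, and 0.257% and 0.692% of all genes past it. Psma8 passed in KO cells at 24 h with the replicate block (adjusted p = 0.0322), where 1.71% of all genes were higher and 1.46% lower. It was kept through KO arrays only, and KO culture 4 was not above the limit, so no rise is read from its calls. For 24 h against 4 h, 0 members passed in KO cells, where 0.747% of all genes did (1 member had an unadjusted p under 0.05, and Psma8 passed with the replicate block), and Psme3 fell by 0.70 in WT cells (adjusted p = 0.0404), where 5.57% of all genes passed. In 7 of 14 other settings Psme3 did not pass in WT cells, among them each fit that left out 1 of the cultures other than WT culture 9.

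**Figure D5:**
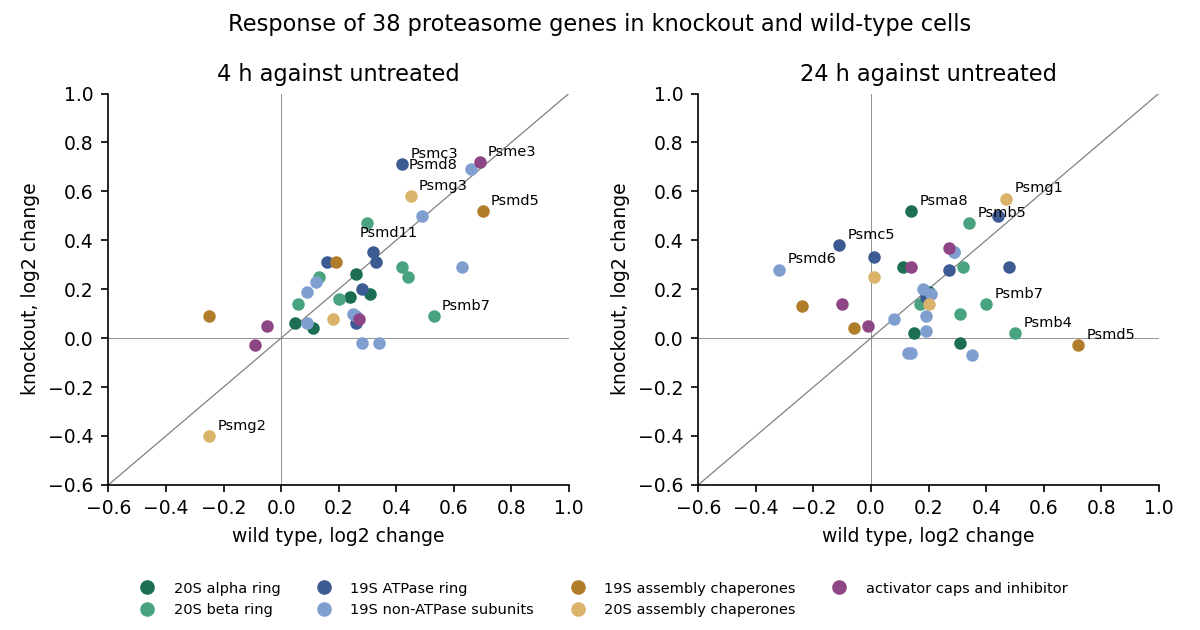
Log2 change of the 38 tested proteasome genes in KO cells (vertical axis) against WT cells (horizontal axis), at 4 h in the left panel and 24 h in the right, coloured by role; the diagonal marks equal change. At 4 h the genes lie along the diagonal (r = 0.72) and at 24 h they form a cloud in the upper right quadrant (r = 0.04).

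The test of the difference between the responses of KO and WT cells found 0 members and 0 of 8966 genes at 4 h and 24 h (0.00% each) in limma. At an unadjusted p under 0.05 there were 0 members at 4 h and 2 at 24 h, Psmb4 at -0.48 ± 0.21 and Psmc5 at 0.49 ± 0.23. For Psme3 the difference at 4 h was 0.03, with a 95% interval from -0.54 to 0.59, and for Psmd8 0.03, from -0.48 to 0.54. Across the 38 genes, which are not independent replicates, the KO and WT changes correlated with r = 0.72 at 4 h (0.86 over all genes) and 0.04 at 24 h (0.76 over all genes). At 24 h 27 of 38 genes were above 0 in both genotypes, and at 4 h 32 were. Psmd5 lay farthest apart at 24 h, with -0.03 ± 0.28 in KO cells and 0.72 ± 0.28 in WT cells.

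Between KO and WT cells over the 3 conditions 0 of 38 proteasome genes passed in limma, where 1.85% of all genes did. Psma8 met the detection filter through KO arrays only, so the counts that follow are over the other 37 genes. Of these 10 had an unadjusted p under 0.05. Their median KO minus WT difference was 0.10, with 29 of 37 above 0 against 47.1% of all genes. By slide the median was taken only over all 38 genes, with Psma8 among them, so no genotype difference is read from it. It was 0.04, 0.24 and 0.04 untreated on slides 1, 2 and 3. At 4 h it was 0.03, 0.12 and 0.10, and at 24 h 0.08, 0.09 and 0.14. Within single conditions 0 members passed untreated, at 4 h or at 24 h (5, 0 and 0 with an unadjusted p under 0.05), where 0.257%, 0.190% and 0.279% of all genes passed. The fit over the 3 conditions counts the 3 arrays of each culture as separate samples. With the mean of each culture as the sample instead, 0 passed and 1 had an unadjusted p under 0.05, where 0.123% of all genes passed. With the slide as a block 2 passed, Psmg1 as higher and Psmd2 as lower in KO cells, while 4.60% of all genes passed.

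Psmb7 had the largest difference between untreated KO and WT cells among the 38 genes, 0.55 ± 0.17 (adjusted p = 0.419), with 11.74, 11.85 and 11.98 in KO cultures and 11.54, 11.10 and 11.29 in WT cultures, which did not overlap. At 4 h its values lay between 11.84 and 12.01 in KO cultures and between 11.73 and 11.98 in WT cultures, which did overlap. Over the 3 conditions the chosen probe of Psmb7 gave 0.32 ± 0.10 in the fit of every kept probe. Its other probes gave 0.31 ± 0.11, 0.38 ± 0.11 and 0.06 ± 0.15 there, and none passed. The share of all genes without overlap is not given here, so no genotype difference is read from it. Psmd2, the large scaffold subunit of the 19S base, was the lowest over the 3 conditions at -0.32 ± 0.14 (adjusted p = 0.343). Its signal was near the detection limit, from 109.1% to 213.8% of it. Its second probe gave -0.12 ± 0.13 (adjusted p = 0.773) in the fit of every kept probe.

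Psma8 was the one member detected in a single genotype. It was above the limit on 2 of 3 untreated, 1 of 3 4 h and 2 of 3 24 h KO arrays and on 0 of 9 WT arrays. Its log2 intensities were 6.74, 6.40 and 6.93 untreated, 6.82, 6.28 and 7.15 at 4 h and 7.31, 6.77 and 7.56 at 24 h in KO cultures, against 6.29, 6.34 and 6.41, then 6.47, 6.27 and 6.46, then 6.60, 6.41 and 6.47 in WT cultures. KO culture 4 was not above the limit at any time. At 24 h the KO mean was 1.40 times the mean detection limit of the WT arrays, and at 4 h 1.01 times. Untreated, the KO mean was not above that limit. A test between the genotypes is not given for Psma8, because no WT array was above the limit. Its second kept probe was also above the limit on 5 arrays only. In the fit of every kept probe that probe was 0.75 ± 0.13 higher in KO cells over the 3 conditions, against 0.47 ± 0.13 on the chosen one. No genotype difference is read from either probe.

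The 6 proteasome genes above the limit on no array were Psma1, Psma3, Psma6, Psmb11, Psmd3 and Psmg4, with signals between 54.7% and 95.9% of the limit. Psmb11 is known as the beta subunit of thymic epithelium. Psma1, Psma3, Psma6 and Psmd3 are constitutive subunits, and nothing is said here of their level. Among the tested genes 19 had more than 1 kept probe. Their probes had the same sign in 14 genes at 4 h and in 16 at 24 h, and 15 of 64 probes passed at 4 h and 0 at 24 h. The shares over the probes of all genes are not given here, so these counts are not read as a result about the members.

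After removal of the group means, the members varied together only weakly over the 18 arrays, which share slides and cultures. The median pairwise r was 0.14 over the 38 genes and 0.00 over all tested genes. It was 0.30 within 11 core subunits, 0.13 within 16 subunits of the 19S particle and 0.00 within 10 assembly factors and caps. Between core and 19S subunits it was 0.17.

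Genes that work with the proteasome were compared from lists, which were chosen with results of these data known. Nfe2l1, which encodes NRF1, rose 1.59-fold at 4 h over both genotypes (log2 0.67 ± 0.19, adjusted p = 0.0268) and was the 1 of 7 genes of its list to pass. Of 9 tested shuttle receptors and p97 partners 2 rose: Rad23b, which carries ubiquitylated proteins (0.51 ± 0.14, adjusted p = 0.0232), and Nsfl1c, a p97 cofactor (0.47 ± 0.10, adjusted p = 0.00804). Of 7 other proteasome components 0 passed at 4 h or 24 h against untreated, and Zfand2a, which associates with proteasomes under arsenite stress, fell by 0.76 at 24 h against 4 h (adjusted p = 0.00733). Of 7 targets of the related factor NRF2 0 passed at 4 h, with a median of 0.25, and Osgin1 fell by 1.13 at 24 h (adjusted p = 0.0173). At 24 h against 4 h Mafk, a partner of NRF1, fell by 0.82 (adjusted p = 0.03), and so did the p97 cofactor gene Nploc4 by 0.49 (adjusted p = 0.0401).

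The chaperonin CCT, another constitutive complex of many subunits, is set beside the proteasome for scale. At 4 h 3 of its 8 genes rose, Cct7 (0.55 ± 0.12), Cct6a (0.41 ± 0.13) and Cct3 (0.35 ± 0.10), with adjusted p-values of 0.00957, 0.0432 and 0.0368. Its median was 0.36 at 4 h and 0.18 at 24 h, with all 8 and 7 of 8 genes above 0, and Tcp1 rose at 24 h (0.48 ± 0.13, adjusted p = 0.0353).

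Other measures moved with time beside these genes. The median of 12 tested genes of dividing cells was -0.68 at 4 h and 1.10 at 24 h, with 0 and 1 of them past the threshold as higher, and 9 of 12 rose at 24 h against 4 h. That median at 24 h was -0.48, 0.28 and 2.14 in KO cultures 3, 4 and 6 and -0.07, 2.28 and 2.01 in WT cultures 6, 8 and 9. Among the 12 mast cell markers 1 rose at 4 h, Hdc (1.73 ± 0.36, adjusted p = 0.00666), and 2 fell. Kit fell by 0.81 (adjusted p = 0.0212) and Gata2 by 0.38 (adjusted p = 0.0313) at 4 h. At 24 h 1 mast cell marker rose, Mcpt4 (2.68 ± 0.68, adjusted p = 0.0265), and 1 fell, Kit. Of 3 basophil markers Cd200r3 fell by 0.62 at 4 h (adjusted p = 0.00524) and by 0.79 at 24 h (adjusted p = 0.00247), and Mcpt8 rose at 24 h (2.06 ± 0.47, adjusted p = 0.0167). Of 3 erythroid and megakaryocyte markers Klf1 rose (0.71 ± 0.15, adjusted p = 0.0131) and Itga2b fell by 0.70 (adjusted p = 0.0481) at 24 h. The macrophage marker Lyz2 fell by 1.01 at 24 h against 4 h (adjusted p = 0.0481). Adgre1, the other macrophage marker detected, went the other way in 6 of 6 cultures (0.58 ± 0.33, adjusted p = 0.229). The summed intensity of the 12 markers was 100265 to 140417 at 4 h and 123085 to 128440 untreated in KO cultures, and 115662 to 150741 at 4 h and 132940 to 144655 untreated in WT cultures. The part of any of these in the proteasome values was not tested.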

How the data were processed

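The samples were 18 arrays of mast cell RNA in 6 groups of 3, grouped by their labels. Per the labels' protocols, cRNA was made with an amplification kit for Illumina arrays. The authors deposited probe intensity values on a linear scale without background subtraction, and a table of log2 values that differed from quantile normalised log2 intensities by at most 0.0657. Software is not given in the sources used here.

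With limma 3.58.1 in R 4.3.3, intensities were background corrected (normexp, offset 50) and quantile normalised, and log2 was taken. A probe was kept when its raw signal was above the 99th percentile of 1506 receptor probes on at least 3 arrays. The probe of a gene was that with the greatest mean of the authors' log2 values. The array annotation gave 1 symbol to 34885 of 45281 probes, several to 18 and none to 10378. No detection p-values were in the tables.

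All arrays were fitted with 6 group means, no block, eBayes and Benjamini-Hochberg adjustment over 8966 genes (0.05, two-sided, 15 comparisons). Intervals use 12 residual degrees of freedom. Contrasts over both genotypes average the KO and WT changes. Same-numbered arrays of a genotype deviated together from the group means (18 of 18 pairs with r over 0.1, from 0.134 to 0.625), and the labels give them 1 number, so the culture was also fitted as a replicate block. Named are members past the threshold, the extremes of each structural group, the peptidase subunits and undetected members; the rule's highest and lowest member by level was not used, because levels of different probes are not compared. The members and lists were chosen with earlier results of these data known, and Psme3ip1 was set apart once the probe table was seen. Other settings were the authors' own values, raw signals without background correction, scaling by the median or by cyclic loess, all probes without the dim filter, the slide as a block, the replicate block, the culture as a random block, every kept probe, culture means, and each culture left out in turn. The steps were tested on simulated data. For 4 h over both genotypes they recovered 3, 14, 44 and 48 of 50 genes changed by 0.25, 0.5, 1 and 2 on the log2 scale.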

Additional observations from a re-analysis of the deposited data

Results flagged for a closer look

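The change from untreated differed between 4 h and 24 h for Psme3, by a test of the difference itself in limma: -0.68 over both genotypes (adjusted p = 0.00319) and -0.70 in WT cells (adjusted p = 0.0404). The same test gave -0.36 for Psmd8 over both genotypes (adjusted p = 0.0409). All 3 values are from 24 h against 4 h, so both changes from untreated share their untreated arrays.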

How the results depend on the processing

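Over both genotypes at 4 h, 15 members rose with the slide as a block, 13 with the replicate block and 16 with the culture as a random block, and 2 to 11 with a culture left out. At 24 h over both genotypes, 2 rose without background correction, where 3.68% of all genes rose, and 2 with median scaling (4.83%). The count was 1 with cyclic loess (3.81%), 2 with the authors' values (3.68%) and 1 without the filter on dim probes (1.33%). With the slide, replicate and random blocks 7, 8 and 8 rose (9.48%, 9.45% and 8.88% of all genes). With a culture left out 0 to 1 rose (1.13% to 2.22%). Counts of 1 or 2 members are near these shares and are not read as a result about the members. For 24 h against 4 h over both genotypes, 1 passed with median scaling, where 13.9% of all genes passed in either direction. With the slide, replicate and random blocks 6, 5 and 7 passed (34.0%, 33.1% and 32.7% of all genes). With a culture left out 1 to 5 passed (5.12% to 21.8%). These counts are not read as a result about the members.

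In KO cells at 4 h, 2 passed with the slide as a block, 2 with the replicate block, 3 with the random block and 0 to 1 with a culture left out. With the replicate block 2.73% of all genes were higher and 1.95% lower there. At 24 h in KO cells 1 passed with the replicate block, and for 24 h against 4 h in KO cells 1 with each of the slide, replicate and random blocks. With the replicate block 1.71% of all genes were higher and 1.46% lower at 24 h, and 3.10% and 3.30% for 24 h against 4 h. In WT cells at 4 h, 1 passed without background correction, 1 with the authors' values, 3 with the slide as a block, 2 with the replicate block, 6 with the random block and 0 to 1 with a culture left out. With the replicate block 4.12% of all genes were higher and 4.41% lower there. At 24 h in WT cells 1 passed with the random block. For 24 h against 4 h in WT cells, 0 passed with median scaling, 0 without the filter, 2 with the random block and 0 to 2 with a culture left out. Within a genotype, the shares of all genes in settings other than the replicate block are not given here. Those counts are therefore not read as a result about the members. For KO against WT over the 3 conditions, 3 passed with the slide as a block and 0 to 1 with a culture left out, and at 24 h 0 to 1. Psma8, which was above the limit on KO arrays only, is 1 of these 3 and the 1 passed with a culture left out, so no genotype difference is read from it. The cause was not tested.

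Results with the replicate block are not given for KO against WT, since each culture lies in 1 genotype. The block takes out the spread between cultures, which that comparison needs. No member's called change reversed, and the median of the 38 genes stayed between 0.18 and 0.37 at 4 h and between 0.15 and 0.33 at 24 h. Median scaling moved the median of all genes at 24 h to 0.13, against -0.01, so the 38 genes were then at 0.33. It took the share of higher calls over all genes at 4 h to 75.0%, against 48.4%, at 24 h to 82.3%, against 44.1%, and at 24 h against 4 h to 65.3%, against 52.2%. Calls over all genes at 4 h numbered 1371, 819 with median scaling, 2341 with the replicate block, 2474 with the slide as a block, 2390 with the random block and 181 to 1519 with a culture left out. At 24 h they numbered 724, 1738 with the replicate block, 1810 with the slide as a block, 1697 with the random block and 221 to 419 with a culture left out. For 24 h against 4 h they numbered 1886, 1247 with median scaling, 2972, 3049 and 2929 with the replicate, slide and random blocks, and 459 to 1951 with a culture left out. For KO against WT over the 3 conditions they numbered 166, 412 with the slide as a block, 65 with the random block, 94 with median scaling, 64 to 149 with a culture left out and 11 over culture means. Members near the detection limit, such as Psma8, limit what can be read of their size.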
